A study of Mus musculus with 56 samples.

Results

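The receptors for the common gamma chain cytokines and for IL-4 and IL-13 were described from 8 genes, taken by symbol from the 55359 genes of the count table through their Ensembl identifiers. They were *Il7r*, *Il2ra*, *Il2rb*, *Il2rg*, *Il15ra*, *Il21r*, *Il4ra* and *Il13ra1*, and all 8 were among the 19657 genes tested. The rule that selects them uses no measured value, but the genes were chosen with earlier results of these data known. RNA was sequenced from CD8+ T cells of female C57BL/6 mice that bind the OVA:Kb tetramer and are specific for the fetus and graft (TFGS), sorted from spleen and lymph nodes as 200 cells per library. The model antigen OVA was carried by the 2W-OVA.BALB/c strain, which supplied both the skin grafts and the fathers of the litters.

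Naive mice (3) had neither graft nor pregnancy, and Sensitized mice (4) had been grafted with 2W-OVA.BALB/c skin. Naive+Pregnant (N+P) and Sensitized+Pregnant (S+P) mice carried a semi-allogeneic litter sired by that strain, without or after such a graft, and were taken soon after delivery. Their TFGS were sorted by PD-1 and CD73. From N+P mice came C1 (PD1-, 3 samples) and C5 (PD1+CD73+, 3 samples), and from S+P mice C4 (PD1-, 6 samples), C5 (PD1+CD73+, 6 samples) and C7 (PD1+CD73-, 5 samples). A post-partum sample was therefore a gate on activation markers as well as a pregnancy. The labels name no gate for Naive and Sensitized TFGS, which each form 1 group. Subsets of pregnant mice share replicate numbers in the labels, which do not say whether a number stands for 1 mouse, and p-values measure the spread between these samples. The assignment of samples to sorting experiments was not given in the labels.

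The common gamma chain, encoded by *Il2rg*, is shared by the receptors for IL-2, IL-4, IL-7, IL-9, IL-15 and IL-21, and each of these receptors holds other chains as well. IL-7 and IL-15 sustain naive and memory CD8 T cells, IL-7Rα is characteristically high on naive and long-lived memory cells, and IL-2Rβ, the chain shared by the IL-2 and IL-15 receptors, is characteristically high on antigen-experienced CD8 T cells and NK cells. These receptors signal through JAK1, JAK3 and STAT proteins, and the IL-4 receptor α chain can pair with the gamma chain or with IL-13Rα1.

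Depth and purity were checked first. The 30 samples held 15547934 to 54809406 counts and 7436 to 26805 detected genes. Replicates 2 and 3 of S+P C4, with replicate 3 of S+P C7, had under 9000 detected genes, and the edgeR calls that rest on them are given with and without them. A library deposited with the same counts for Naive replicate 1 and S+P C4 replicate 1 was left out of both samples, and a nearly identical pair labelled S+P C7 replicates 1 and 2 was averaged into 1 sample, so 30 samples were compared. The 6 CD8 T cell markers summed to 4490 to 8787 counts per 1000000 (CPM) in every sample, and Cd4 did not pass 3.71 CPM. Among markers of other cells, H2-Aa (1259 CPM), Ncr1 (103 CPM) and Hbb-bs (6454 CPM) peaked in S+P C7 replicate 3, and Lyz2 (332 CPM) in Sensitized replicate 1. Fewer cells of a kind and less RNA per cell cannot be told apart in such bulk samples.

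The start regions of *Il7r*, the gene with 2 of the 3 calls reported here, and of the shared chain *Il2rg* are printed for comparison, each as 250 bases 5′ to 3′ up to the RefSeq start on the gene's strand (GRCm38.p6). They lie at chr15:9529877-9530126 for *Il7r* and chrX:101268256-101268505 for *Il2rg*, both on the minus strand. Capitals mark the motifs searched on both strands.
Il7r: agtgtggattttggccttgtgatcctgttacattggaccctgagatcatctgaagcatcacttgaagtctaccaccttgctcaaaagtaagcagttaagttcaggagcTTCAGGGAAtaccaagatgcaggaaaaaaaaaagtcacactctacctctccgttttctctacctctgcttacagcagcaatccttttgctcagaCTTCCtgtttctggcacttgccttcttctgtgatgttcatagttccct
Il2rg: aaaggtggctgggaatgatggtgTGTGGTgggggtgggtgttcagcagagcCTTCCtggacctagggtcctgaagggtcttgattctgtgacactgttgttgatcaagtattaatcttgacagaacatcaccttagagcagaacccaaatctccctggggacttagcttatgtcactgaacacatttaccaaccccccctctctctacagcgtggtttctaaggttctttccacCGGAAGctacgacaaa
The *Il7r* window held 1 STAT5 motif (TTCNNNGAA), which 8.13% of 27025 genes hold in windows of this length, and 1 ETS motif (GGAAG, printed as CTTCC on the other strand), held by 66.9%. In the *Il2rg* window were the longer ETS form CGGAAG, found in 15.3% of genes, a further GGAAG match and the RUNX motif TGTGGT, found in 15.9%. A match describes letters only and is no sign of binding. 7 of the 8 genes had an entry in the RefSeq table.

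Levels of the 8 transcripts were compared per kilobase of exon. By median share *Il2rg* and *Il7r* led in Naive, Sensitized and both N+P groups. *Il7r* took a median of 36.2% of the summed CPM per kb of the 8 genes in Naive and 37.1% in Sensitized samples. For the N+P subsets the figures were 36.5% (C1) and 27.3% (C5). In S+P samples its median share was 21.9% in C4, 14.8% in C5 and 7.0% in C7. *Il2rb* went from a median share of 6.96% in Naive to 18.5% in N+P C5, 15.1% in Sensitized, 29.0% in S+P C5 and 32.7% in samples of the C7 subset. *Il2rg* held a median of 38.4% to 52.0% in the 7 groups. *Il21r* had medians of 3.98% to 9.07%, and *Il15ra*, *Il4ra*, *Il2ra* and *Il13ra1* each had a median share of at most 3.50% in any group. The receptor transcripts of a Naive sample were thus mostly those of *Il2rg* and *Il7r*, and those of an S+P C7 sample mostly *Il2rg* and *Il2rb*.

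**Figure D1:**
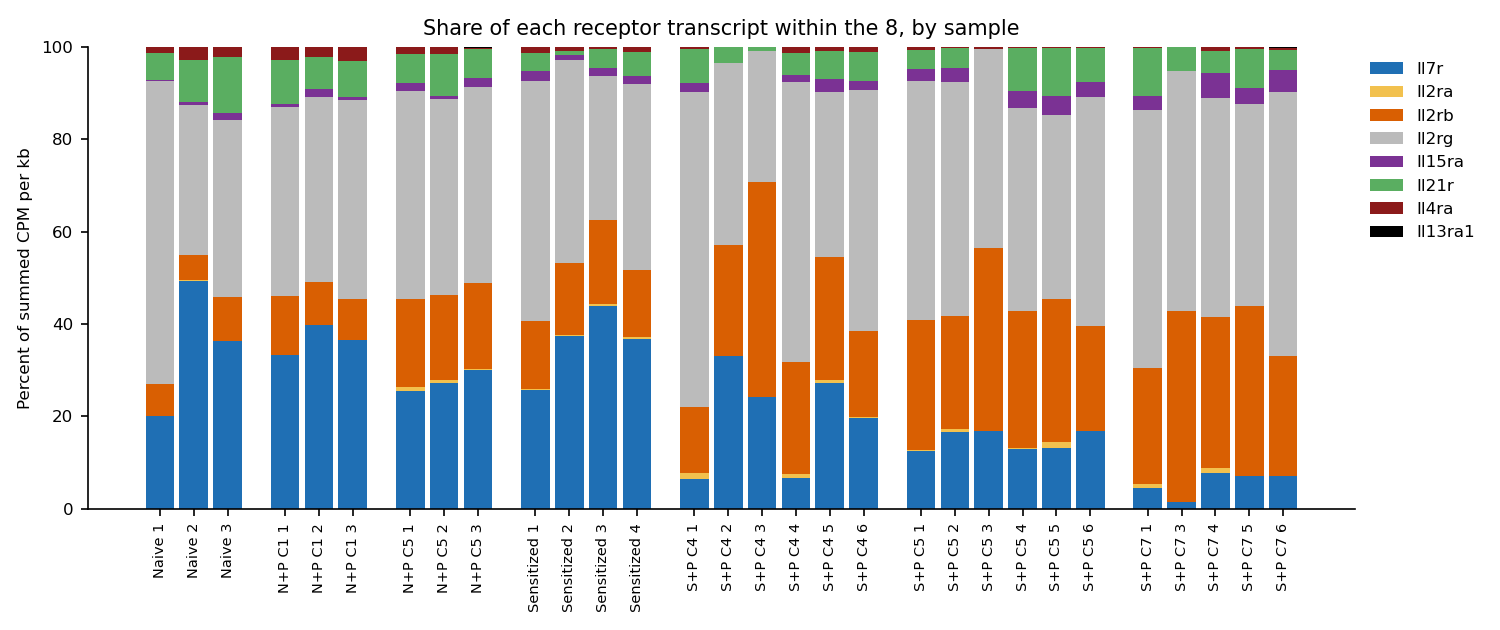
Each bar is 1 sample and shows the percent that each of the 8 receptor transcripts takes of their summed CPM per kb of exon, with samples ordered by group and replicate. The *Il7r* share is 25.5% to 30.1% in N+P C5, 12.5% to 16.8% in S+P C5 and 1.33% to 7.65% in the C7 subset (4.54% to 7.65% without replicate 3, which has few genes), and *Il2rg* takes the largest median share in every group.

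*Il2rg* (chromosome X, 100307984 to 100311861, minus strand, GRCm39), the shared signalling chain, was detected at 267 to 781 CPM in all 30 samples. Its 4 Sensitized values were 781, 725, 542 and 566 CPM, and in S+P C5 it ranged from 267 over a median of 380.5 to 480 CPM. The groups did not overlap, as for 2.88% of all tested genes in this comparison. The log2 fold change of S+P C5 against Sensitized was -0.80 (SE 0.26, 95% interval -1.33 to -0.26), which missed the call with an adjusted p of 0.277 (edgeR's quasi-likelihood test, Benjamini-Hochberg adjustment over 19657 genes). *Il2rg* was lower in S+P C5 than in S+P C4 in 6 of 6 same-numbered pairs, at a median ratio of 0.715. The ratios ran from 0.618 to 0.9997, so replicate 6 was nearly equal. S+P C4 replicates 2 and 3 had under 9000 detected genes. The log2 fold change between these subsets was -0.41 (SE 0.24), which missed the call (edgeR adjusted p = 0.505). The Naive samples, at 658, 453 and 384 CPM, overlapped every other group for this gene. No comparison called *Il2rg*, and adjacent groups overlapped throughout its order from Sensitized (median 645 CPM) to S+P C5.

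*Il7r* (chromosome 15, 9505874 to 9530262, minus strand) encodes the α chain of the IL-7 receptor, also called CD127. Naive samples held 393, 1342 and 708 CPM and Sensitized samples 752, 1207, 1485 and 1009 CPM. N+P C1 samples had 686, 763 and 803 CPM and N+P C5 samples 551, 560 and 666 CPM. These 4 groups overlapped in part, with the widest spread in Naive mice. S+P C5 ranged from 182.6 over a median of 215 to 306 CPM, below every Sensitized sample and every N+P sample. S+P C7 held 98.8, 20.4, 111, 114 and 132 CPM, below every sample of S+P C5. In order of their medians came Sensitized, the PD1- N+P subset, Naive, the PD1+CD73+ N+P subset, and then S+P C4, C5 and C7. Each overlapped the next except S+P C5 and S+P C7.

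**Figure D2:**
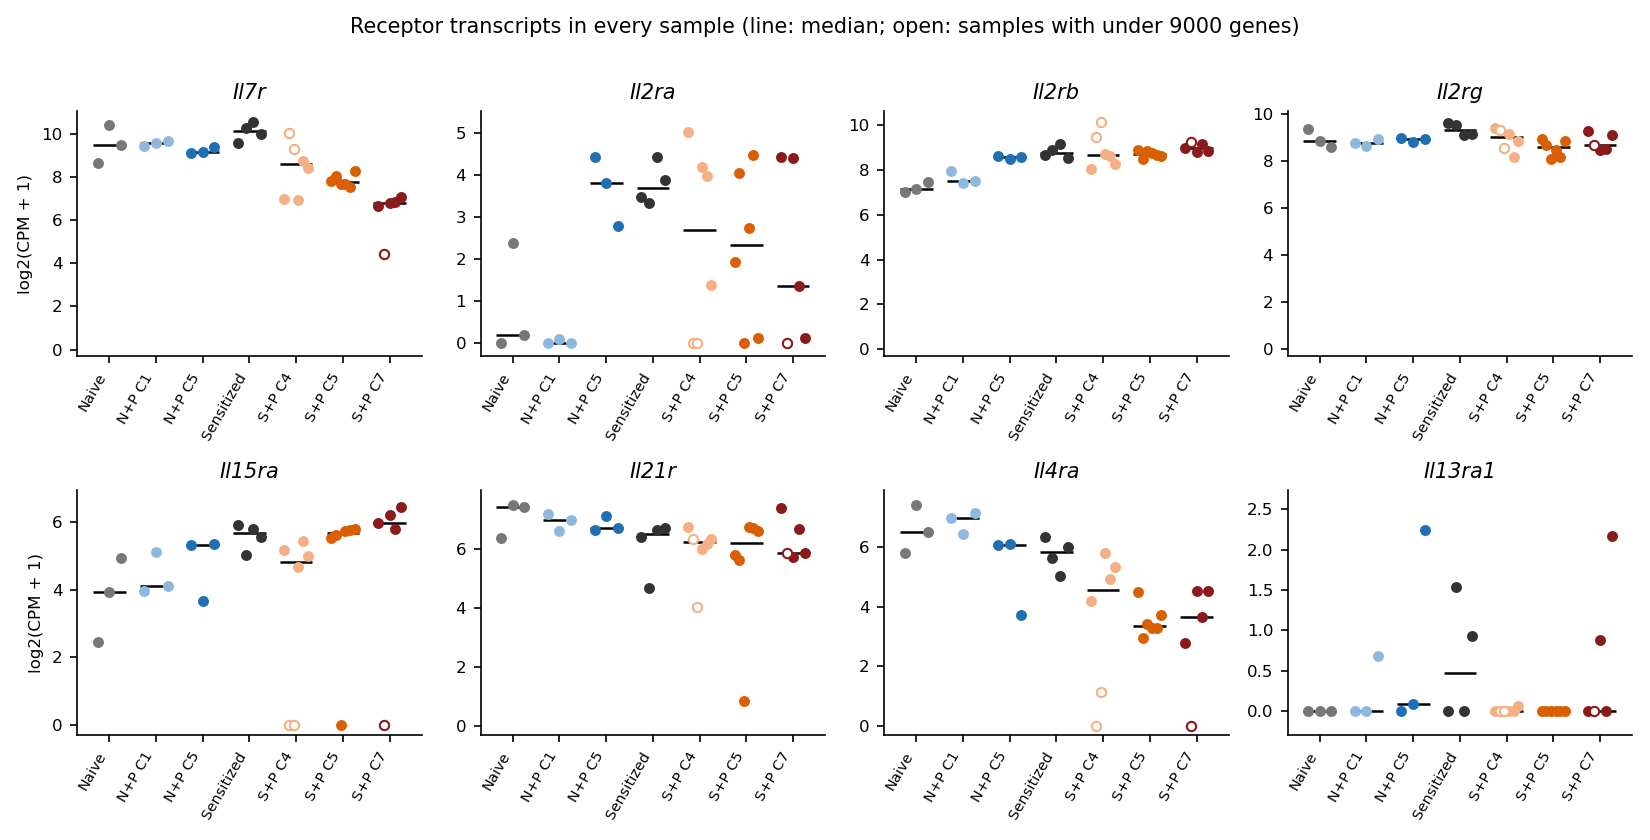
Each panel plots 1 receptor gene as log2(CPM + 1) in all 30 samples by group, with the group median as a line and samples with under 9000 detected genes as open circles. *Il7r* is lower in S+P C7 than in Sensitized, and all 5 S+P C7 samples lie at 20.4 to 132 CPM, *Il2rb* is lowest in Naive and N+P C1, and *Il13ra1* is at or near 0 in most samples.

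The post-partum S+P subsets, gated on PD-1 and CD73, were compared with Sensitized TFGS, for which the labels name no gate. Pregnancy and the gate cannot be told apart in these comparisons. These comparisons share the 4 Sensitized samples. Of the 8 genes, 1 was called in S+P C5 and 1 in the C7 subset, and both calls were *Il7r*, which fell. A gene was called when its adjusted p was below 0.1 and its log2 fold change exceeded 0.9 in size, which held for 0.0712% of all tested genes in S+P C5 and for 0.0305% in the C7 subset. *Il7r* fell by 2.28 on the log2 scale in S+P C5 (SE 0.45, 95% interval -3.19 to -1.36, edgeR adjusted p = 0.0446). In S+P C7 it fell by 3.55 (SE 0.50, interval -4.57 to -2.53, edgeR adjusted p = 0.00107). Mean levels were 1113 ± 310.1 CPM (SD, n = 4) in Sensitized, 230 ± 45.8 CPM (n = 6) in S+P C5 and 95.2 ± 43.5 CPM (n = 5) in the C7 subset. Neither S+P C5 nor S+P C7 overlapped Sensitized for *Il7r*, as for 2.88% and 2.15% of all genes. Markers of other cells also differed in level between these groups. Of the 5 myeloid markers, Cd68 ranged from 3.60 to 12.9 CPM in Sensitized and from 26.4 to 79.0 CPM in S+P C5. Samples of the C7 subset held 37.9, 74.4, 81.6 and 69.6 CPM of Cd68 and 0 in replicate 3. Lyz2 and Cd14 were at or under 3 counts in every S+P C5 sample, and the 5 markers summed to 4.05 to 345 CPM in Sensitized, 26.4 to 80.8 CPM in S+P C5 and 0 to 96.6 CPM in the C7 subset. Of the 2 regulatory T cell markers, Foxp3 was at most 1.35 CPM in these groups, and Ikzf2 ranged from 3.25 to 17.8 CPM in Sensitized, 17.3 to 121 CPM in S+P C5 and 0 to 55.3 CPM in the C7 subset. The part of cells with these markers in the *Il7r* result was not tested. Without the samples with under 9000 genes, *Il7r* fell by 2.25 in S+P C5 (edgeR adjusted p = 0.000203) and by 3.29 in the C7 subset (adjusted p = 2.68e-05), in fits that called 1.02% and 0.353% of all genes. Leaving out 1 Sensitized or S+P C5 sample kept the S+P C5 fall between 2.09 and 2.42, but the call was lost for 8 of the 10 samples, namely Sensitized replicates 2, 3 and 4 and S+P C5 replicates 2 to 6. In S+P C7 the call held without any 1 sample and was lost when only these 2 groups entered the fit (log2 fold change -3.54, adjusted p = 0.119).

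S+P C4, the PD1- subset, was more variable for *Il7r*. Its 6 samples held 125, 1035, 616, 122, 428 and 343 CPM. The 1035 and 616 CPM samples were the replicates with 8002 and 7436 detected genes. The log2 fold change against Sensitized was -1.32 (SE 0.45), which missed the call (edgeR adjusted p = 0.317), and 0.00509% of all genes were called. When the samples with few genes were left out, *Il7r* was lower in S+P C4 by a log2 fold change of -2.09 (adjusted p = 0.0147), and 4 of 19553 genes (0.0205%) were called. Over the 8 genes the median log2 fold change against Sensitized was -0.75 in S+P C4, -0.81 in C5 and -0.17 in C7, beside -0.14, -0.01 and 0.0 over all tested genes. These medians include the fitted values of *Il13ra1*, which was at or under 3 counts in 24 of 30 samples. No shift of the 8 genes as a set is therefore read from them. The part of the low gene number in the *Il7r* result of S+P C4 was not tested.

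The subsets of the S+P mothers were also compared with each other. *Il7r* was lower in S+P C7 than in S+P C5 in 4 of 4 same-numbered pairs (leaving out the averaged sample), at a median ratio of 0.492, and *Il7r* did not overlap between the subsets, as for 0.397% of all genes. Between these subsets the log2 fold change was -1.27 (SE 0.44, interval -2.16 to -0.38), which missed the call (edgeR adjusted p = 0.278), and 0.0% of all genes were called. Against S+P C4, *Il7r* in S+P C7 had a log2 fold change of -2.22 (SE 0.45, adjusted p = 0.174), where 0.00509% of genes were called. *Il7r* was lower in the C7 subset in 4 of 4 such pairs. Between S+P C5 and C4 the log2 fold change was -0.95 (SE 0.41, adjusted p = 0.307, with 0.0305% of genes called), and *Il7r* was lower in C5 in 4 of 6 pairs. In the other 2, replicates 1 and 4, S+P C4 had the lowest *Il7r* levels of its group. Without the samples with few genes the log2 fold change of C7 against C5 was -1.03 (adjusted p = 0.279), and those against S+P C4 shrank to -1.20 in C7 (adjusted p = 0.464) and -0.16 in C5 (adjusted p = 0.949), so the size of both differences against S+P C4 depended on the samples with few genes.

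Pregnancy without prior sensitization gave no call for *Il7r*. N+P C5 against Naive gave a log2 fold change of -0.46 (SE 0.57, interval -1.63 to 0.71, edgeR adjusted p = 1), in a comparison that called 0.0407% of genes. N+P C5 lay below N+P C1 in 3 of 3 same-numbered pairs at a median ratio of 0.803, and the groups did not overlap, as for 10.8% of all genes, with a log2 fold change of -0.34 and an adjusted p of 1. The difference between the pregnancy contrasts, (S+P C5 - Sensitized) - (N+P C5 - Naive), was -1.82 for *Il7r* (SE 0.73, interval -3.31 to -0.33, unadjusted p = 0.0186 in edgeR, adjusted p = 0.649), and 0.0254% of genes were called. S+P C5 and N+P C5, which share the PD1+CD73+ gate, did not overlap for *Il7r* (2.67% of all genes do not). Between them the log2 fold change was -1.37 (SE 0.48, adjusted p = 0.809), and 0.0% of genes were called.

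*Il2rb* (chromosome 15, 78363456 to 78395566, minus strand), the signalling chain shared by the IL-2 and IL-15 receptors, was higher in Sensitized than in Naive TFGS. The 3 Naive samples held 127, 140 and 174 CPM, and the 4 Sensitized samples 399, 465.7, 571 and 369.5 CPM, with no overlap (7.59% of all genes do not overlap here). *Il2rb* rose by 1.62 on the log2 scale (SE 0.37, interval 0.86 to 2.38, edgeR adjusted p = 0.0903) and was 1 of the 8 genes called, while 0.153% of all genes were called. It stood close to the threshold. Leaving out any 1 of the 7 samples kept the log2 fold change between 1.47 and 1.76 and lost the call, and without the samples with few genes the adjusted p was 4.9e-05 with 0.782% of genes called. *Il2rb* is also an NK cell gene. Ncr1, which marks NK cells, was at 0 in the 3 Naive samples and at most 1.90 CPM in the Sensitized samples, while Klrb1c ranged from 53.3 to 126 CPM in Sensitized and did not pass 0.0823 CPM in Naive. The part of Klrb1c-expressing cells in the result was not tested. An antisense gene, Gm62993, overlaps *Il2rb* exons in the annotation and is not among the counted genes.

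In naive mothers *Il2rb* did not overlap between the gates. N+P C5 samples had 385, 354 and 383 CPM and N+P C1 samples 247, 170 and 182.5 CPM. These subsets did not overlap, as for 10.8% of all genes. N+P C5 and Naive did not overlap either, as for 12.9% of all genes. N+P C5 exceeded N+P C1 in 3 of 3 pairs, at a median ratio of 2.09. The log2 fold change of N+P C5 against Naive was 1.35 (SE 0.39, interval 0.56 to 2.14), which missed the call (edgeR adjusted p = 0.601). It passed without the samples with few genes, all of them from S+P mice (1.37, adjusted p = 0.0012, 0.614% of genes called). Between N+P C5 and N+P C1 the log2 fold change was 0.90 (SE 0.38, adjusted p = 0.919), with 0.00509% of genes called. N+P C1 and Naive differed by 0.45 (SE 0.38, adjusted p = 1), where 0.0% of genes were called.

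Among TFGS of sensitized mice *Il2rb* gave no call. S+P C5 ranged from 358 over a median of 418 to 478 CPM, and S+P C7 held 508, 594, 441, 559 and 459 CPM. The log2 fold changes against Sensitized were -0.11 (interval -0.72 to 0.50) and 0.18 (interval -0.45 to 0.82). S+P C4 reached 702 and 1104 CPM in the replicates with few genes and 259 to 416 CPM in the other 4. The pregnancy contrasts differed for *Il2rb* by -1.46 (SE 0.48, interval -2.44 to -0.47, unadjusted p = 0.0051 and adjusted p = 0.649 in edgeR), and the adjusted p was 0.0159 without the samples with few genes, where 0.138% of genes were called. Every Sensitized and every N+P C5 sample lay above the 3 Naive samples for *Il2rb*, while S+P C5 and Sensitized overlapped.

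**Figure D3:**
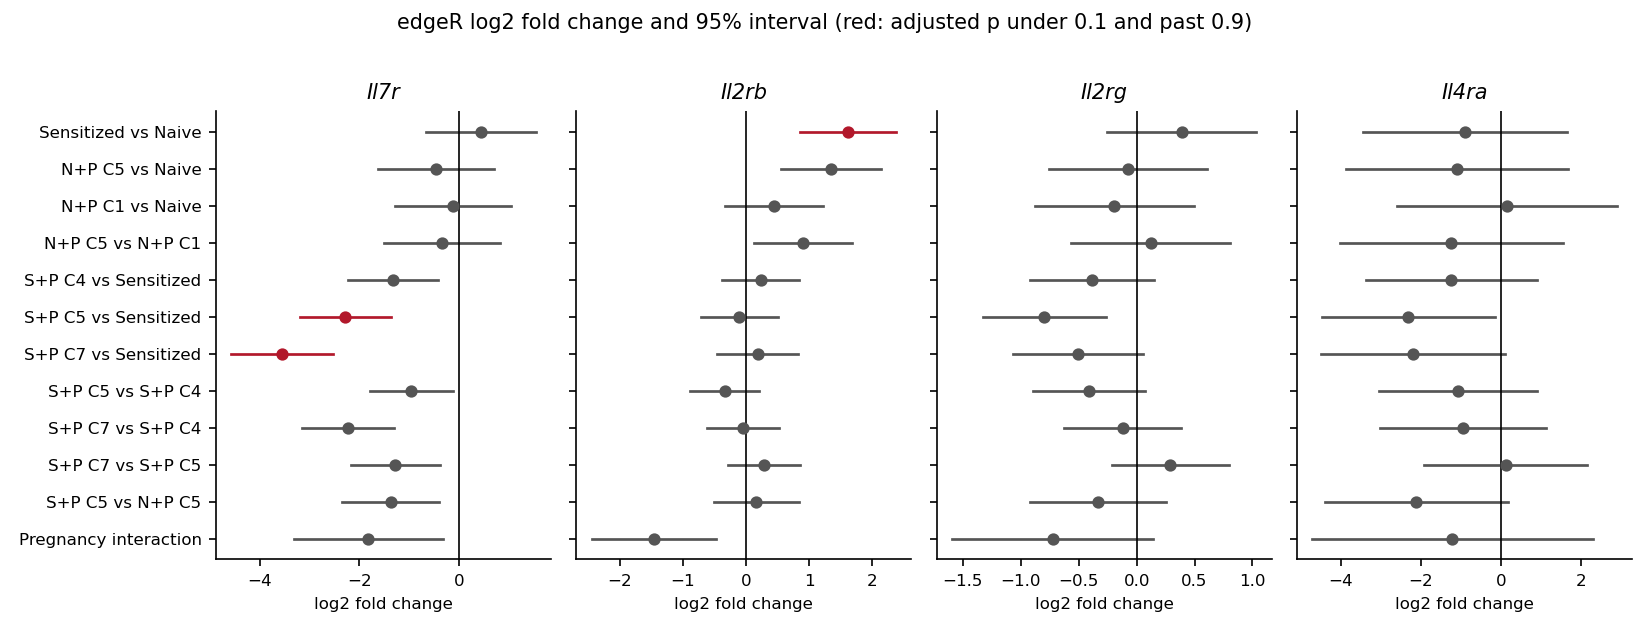
Points are edgeR log2 fold changes for *Il7r*, *Il2rb*, *Il2rg* and *Il4ra* in the 12 comparisons, with 95% intervals as lines and called results in red, and the lowest line is the difference between the pregnancy contrasts. *Il7r* is called against Sensitized in S+P C5 and C7, at -2.28 and -3.55, and *Il2rb* in Sensitized against Naive at 1.62.

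The levels of *Il7r* and *Il2rb* were set against each other in each sample. Per kilobase of exon, *Il7r* was 2.89 to 8.96 times *Il2rb* in Naive and 2.59 to 4.19 times in N+P C1. The ratio was 1.76 to 2.55 in Sensitized and 1.33 to 1.62 in N+P C5 samples. *Il7r* was thus the more abundant of the pair in all 13 samples from Naive, Sensitized and N+P mice. In S+P C4 the ratio ran from 0.273 to 1.38 and passed 1 in 3 of 6 samples. It was 0.422 to 0.729 in S+P C5 and 0.032 to 0.268 in the C7 subset (0.181 to 0.268 without replicate 3), below 1 in each of these 11 samples. Over the 30 samples Spearman's rho between the genes was -0.30, a description of points that share groups.

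**Figure D4:**
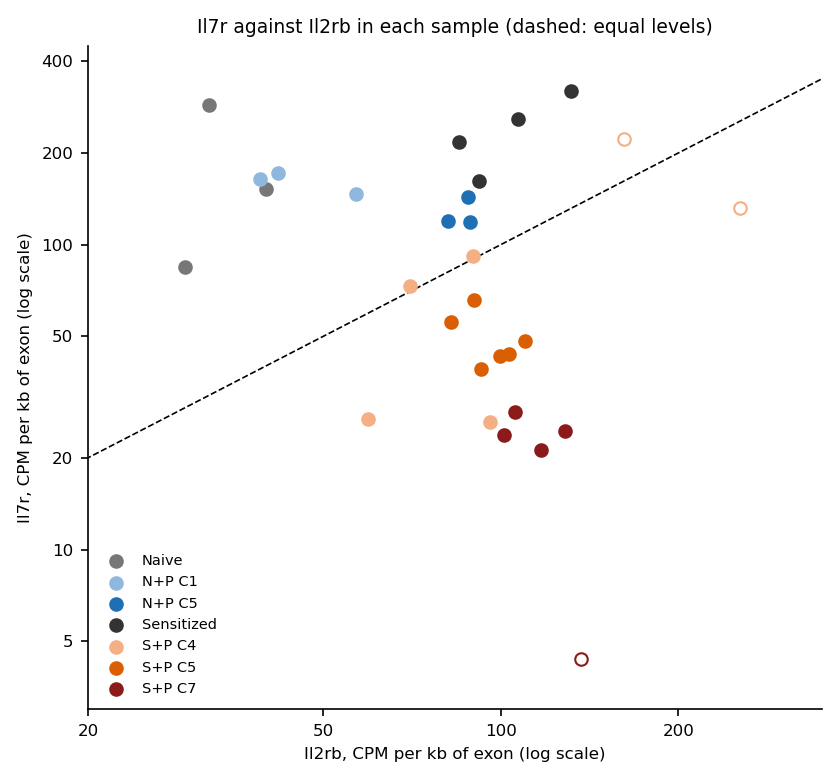
Each point is 1 sample, with *Il2rb* on the horizontal and *Il7r* on the vertical axis in CPM per kb of exon, both on log scales, and the dashed line marks equal levels. Naive, N+P and Sensitized samples lie above the line and all S+P C5 and S+P C7 samples below it, and open circles are the 3 samples with under 9000 genes.

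*Il2ra* (chromosome 2, 11647618 to 11698004, plus strand) encodes the α chain that raises the affinity of the IL-2 receptor and is induced by activation. It was at or under 3 counts in the 3 N+P C1 samples, while the N+P C5 samples held 20.7, 13.1 and 5.93 CPM. The mean of N+P C5 was at least 126.5-fold higher than the highest floor of 3 counts per N+P C1 sample, and the lowest N+P C5 sample at least 56.7-fold. Both limits cover counting error only. The technical libraries held 22 and 425 counts in N+P C5 replicate 2, and 20 and 171 in replicate 3. *Il2ra* had the larger value in N+P C5 in 3 of 3 pairs, and the subsets did not overlap, as for 10.8% of all genes. The test missed the call (edgeR adjusted p = 0.919). Naive samples held 0, 4.24 and 0.151 CPM and Sensitized samples 10.2, 9.15, 20.5 and 13.8 CPM, without overlap, as for 7.59% of all genes. For *Il2ra* the log2 fold change was 3.19 with an SE of 2.36 and an adjusted p of 0.912. S+P samples spanned 0 to 31.4 CPM in C4, 0 to 21.4 CPM in C5 and 0 to 20.6 CPM in C7. No order among the S+P subsets could be read at this spread.

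*Il15ra* (chromosome 2, 11710101 to 11739128, plus strand), the α chain that presents IL-15, is the neighbour of *Il2ra*, with which it had a rho of 0.57 over the 30 samples. Naive samples had 4.49, 14.2 and 29.5 CPM and Sensitized samples 58.8, 31.6, 55.0 and 46.2 CPM. These groups did not overlap, as for 7.59% of all genes, at a log2 fold change of 1.58 (SE 1.65, edgeR adjusted p = 1). S+P C7 held 62.0, 72.9, 54.4 and 86.0 CPM in 4 samples and 0 in replicate 3. *Il15ra* was also at 0 in S+P C4 replicates 2 and 3 and in S+P C5 replicate 3. The first 3 of these 4 samples with no *Il15ra* count were those with under 9000 genes, while S+P C5 replicate 3 had 12652. *Il21r* (chromosome 7, 125202601 to 125232756, plus strand), the IL-21 receptor chain, had its highest median in Naive (172 CPM) and its lowest in S+P C7 (57.6 CPM), but each group overlapped the next. By mean, S+P C7 (86.9 CPM) lay above Sensitized (77.6 CPM), S+P C4 (69.0 CPM) and S+P C5 (68.6 CPM). The log2 fold changes of *Il21r* lay between -0.89 and 0.34 in the 12 comparisons, and no comparison called it.

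*Il4ra* (chromosome 7, 125151079 to 125182844, plus strand) encodes the ligand-binding chain for IL-4. N+P C1 samples held 122, 85.0 and 138 CPM and Naive samples 55.1, 168 and 89.4 CPM. Sensitized samples had 79.6, 48.5, 31.7 and 62.9 CPM. S+P C5 ranged from 6.76 over a median of 9.26 to 21.5 CPM, and S+P C7 held 5.94, 0, 22.0, 11.5 and 21.7 CPM. Both lay below all Sensitized samples, where 2.88% and 2.15% of all genes did not overlap. The log2 fold change was -2.31 in S+P C5 (SE 1.06, unadjusted p = 0.0376 and adjusted p = 0.342 in edgeR) and -2.19 in the C7 subset (SE 1.13, adjusted p = 0.529). *Il4ra* passed in S+P C5 when the samples with few genes were left out (-2.28, adjusted p = 0.0103), and not in S+P C7 (-1.86, adjusted p = 0.192). S+P C4 held 17.2, 0, 1.19, 54.9, 29.2 and 39.5 CPM and overlapped Sensitized (log2 fold change -1.23, SE 1.05, edgeR adjusted p = 0.842). N+P C5 held 66.3, 67.6 and 12.2 CPM, less than N+P C1 in 3 of 3 same-numbered pairs. The N+P subsets did not overlap for *Il4ra*, as for 10.8% of all genes, and the log2 fold change of -1.24 (SE 1.37) was not called. An antisense gene, Gm44876, overlaps *Il4ra* exons and is among the counted genes. The strand setting of the counting was not given, and the part of Gm44876 reads in the *Il4ra* counts was not tested.

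*Il13ra1* (chromosome X, 35375461 to 35435331, plus strand), which joins *Il4ra* in the IL-13 receptor, was at or under 3 counts in 24 of 30 samples and reached at most 3.72 CPM. The 6 samples above this floor were S+P C7 replicates 4 and 6, Sensitized replicates 2 and 4, N+P C1 replicate 3 and N+P C5 replicate 3. In 5 of these 6 samples all counts came from 1 of the technical libraries, 143 against 0 in S+P C7 replicate 6. No group level of *Il13ra1* is therefore given, and its fitted fold changes, which depend on the prior count, are not printed.

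How far a transcript could be measured from 200 cells was read from the 23 samples with a pair of technical libraries. The median fold between the libraries of a pair was 1.19 for *Il7r*, 1.22 for *Il2rb* and 1.22 for *Il2rg*. It was 1.57 for *Il21r*, 1.69 for *Il15ra*, 1.75 for *Il4ra* and 2.25 for *Il2ra*. For *Il13ra1* both libraries were at or under 3 counts in 17 of 23 pairs. *Il4ra* in S+P C7 replicate 6 had 887 counts in one library and 0 in the other, and *Il15ra* in N+P C1 replicate 3 had 1 and 559. *Il2ra* had only 1 library of the pair at or under 3 counts in 6 of 23 samples.

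**Figure D5:**
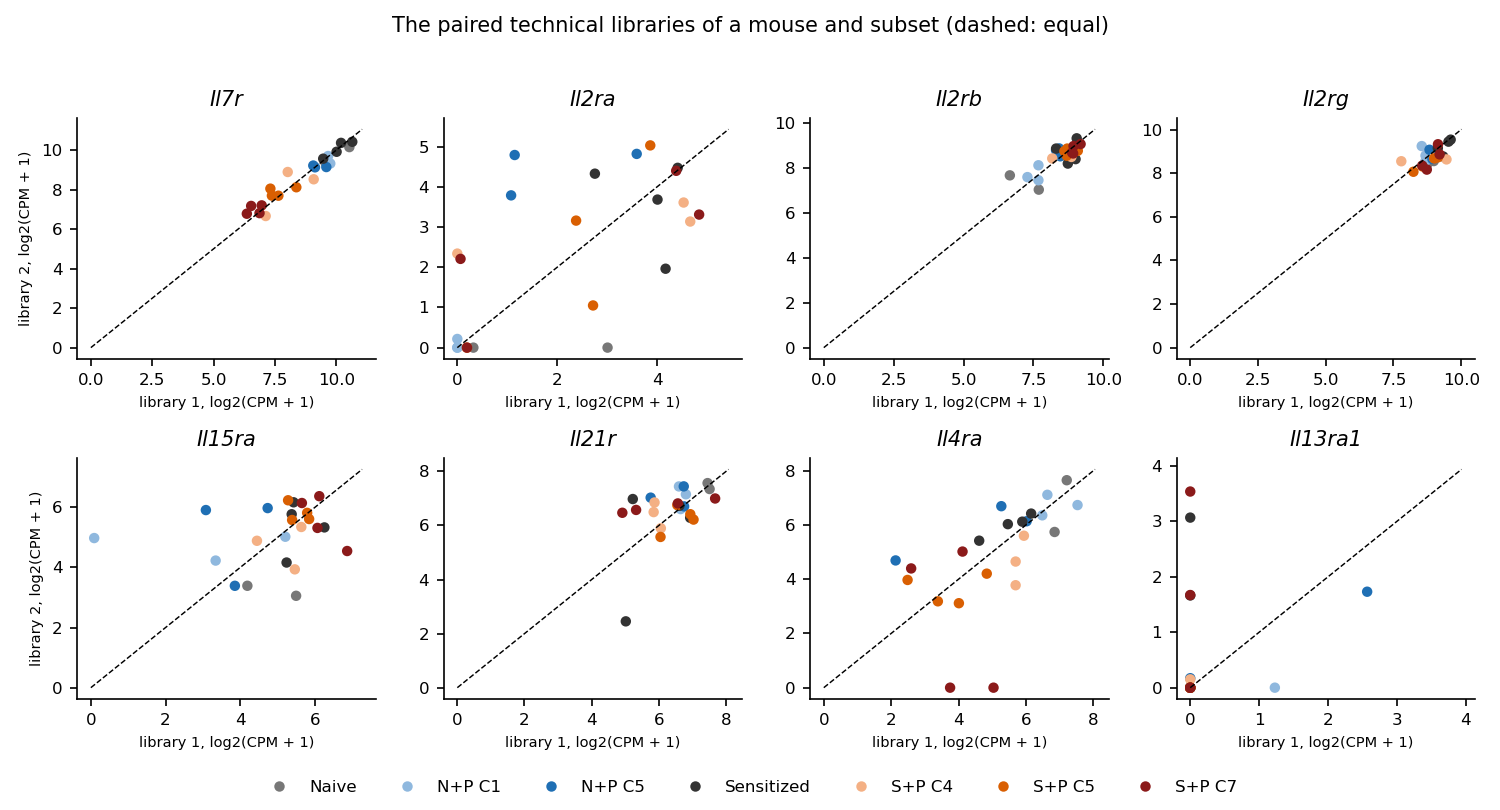
Each panel sets the pair of technical libraries made from 1 sample against each other as log2(CPM + 1) for 1 gene, coloured by group, with equality dashed. Points for *Il7r*, *Il2rb* and *Il2rg* lie near the line (median fold 1.19 to 1.22), and *Il2ra*, *Il4ra* and *Il13ra1* have points on an axis where 1 library gave no count.

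Genes that act with these receptors were taken from lists by role. Of the 8 ligand genes, 5 were tested, and of 9 JAK-STAT, 8 cytokine-induced or feedback and 5 *Il7r* regulator genes all were tested. None of them was called in any of the 12 comparisons, in either direction, where 0.0% to 0.153% of all genes were called per comparison. Of the remaining receptor chains, 2 of 3 were tested and none was called. Jak1, the kinase shared by these receptors, held 788 ± 147 CPM (SD, n = 4) in Sensitized and 888 ± 182.5 CPM (n = 6) in S+P C5 samples. Stat5b, a STAT activated by IL-2, IL-7 and IL-15, had 46.6 ± 13.4 CPM and 55.7 ± 13.1 CPM in these groups. The median log2 fold change of the JAK-STAT list was 0.17 in S+P C5 and 0.27 in the C7 subset against Sensitized.

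Ligand transcripts were also read in the TFGS. Il2 had its highest group mean in Sensitized (5.44 ± 3.76 CPM, n = 4, range 3.07 to 11.1) and reached 20.4 CPM in 1 S+P C5 sample. Il15 also had its highest group mean in Sensitized, at 11.97 ± 9.998 CPM (n = 4, range 1.38 to 25.2), with means of 1.33 to 2.75 CPM elsewhere. Tslp, a ligand that uses *Il7r*, was at 0 in 4 groups. In S+P C7 it reached 38.5 CPM in 1 sample, at a mean of 7.83 ± 17.1 CPM (n = 5), and 3 samples were at the floor. Il7, Il4, Il9 and Il13 had a group mean of at most 1.54 CPM, and Il9 and Il13 had no count in any group. Il21 was at or under 3 counts in all Naive, N+P C1 and Sensitized samples. It ranged from 2.12 to 37.1 CPM in N+P C5 and from 1.14 to 51.4 CPM in S+P C5. For S+P C5 against Sensitized the unadjusted p of Il21 was 0.000512 and the adjusted p 0.255 in edgeR. In S+P C7, Il21 ranged from 0 to 15.1 CPM, with 2 samples at the floor. Its unadjusted p against Sensitized was 0.00187 and the adjusted p 0.473 in edgeR. In S+P C4 it ranged from 0 to 3.05 CPM, with 5 samples at the floor. Il21 was thus above the floor in each PD1+CD73+ sample and in part of the S+P C7 and C4 samples. It was above the floor in none of the Naive, N+P C1 and Sensitized samples, without a call.

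The 3 genes whose CPM followed a receptor most closely over the 30 samples were found by Spearman's rho among the 8250 genes with a mean of at least 10 CPM. For *Il7r* they were Emb (rho 0.83), Bcl2 (0.79) and Snhg12 (0.79). Bcl2, a survival factor that IL-7 is known to maintain, held 280.5 ± 64.8 CPM (n = 4) in Sensitized, 113 ± 29.8 CPM (n = 6) in S+P C5 and 92.2 ± 45.9 CPM (n = 5) in the C7 subset. Its log2 fold changes against Sensitized were -1.32 (SE 0.41, edgeR adjusted p = 0.277) and -1.61 (SE 0.43, adjusted p = 0.473). S100a11, Ech1 and Atp6v0e were closest to *Il2rb* (0.78, 0.74 and 0.73), and Arhgdib, Cdk2ap2 and Selplg to *Il2rg* (0.79, 0.71 and 0.71). Tnfsf14, Rptor and Bhlhe40 came closest to *Il2ra* (0.85, 0.85 and 0.78), and Capza1, Phf11b and Atf6 to *Il15ra* (0.80, 0.79 and 0.79). *Il21r* had lower values, with Smg9 (0.67), Lrrc42 (0.67) and Rcn3 (0.67). For *Il4ra* they were Gpatch4, Smad7 and St8sia1 (0.87, 0.85 and 0.84). Samples that share a group are not independent points, so these values describe likeness only. Among the 8 genes themselves, *Il4ra* had a rho of 0.55 with *Il7r* and -0.71 with *Il2rb*.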

How the data were processed

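Raw counts per gene and library were deposited by the authors without normalization, in 56 libraries with 6636532 to 32625243 counts. Per the study's methods and the submitters' processing notes, the authors used cutadapt 3.4 for trimming, STAR 2.6.1b for alignment to GRCm39 and featureCounts 2.0.1 for the counts, after removing reads that mapped to more than 1 place. The strand option and the annotation release are not given in the sources used here. Libraries were made with SmartSeq2 without molecular identifiers, so floors of 3 counts cover counting error only.

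Columns were matched to samples by name, and 4 columns carry another technical letter than the label. Counts were summed over technical libraries. The library with identical counts in Naive and S+P C4 was dropped from both, and the near-identical S+P C7 pair was averaged (r = 0.999 on log2(CPM + 1), against at most 0.953 between technical libraries), giving 30 samples in 7 groups. Replicates are the biological samples of the labels.

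Differential expression was tested with edgeR 4.0.16 in R 4.3.3 by a robust two-sided quasi-likelihood test with all 7 groups in the model, TMM scaling, filterByExpr (minimum count 10) and Benjamini-Hochberg adjustment over 19657 genes. Calls needed an adjusted p below 0.1 with a log2 fold change beyond 0.9 in size, as in the study's methods, which used DESeq2. SE is the fold change over the root of F. CPM used the TMM library sizes. DESeq2 1.42.0, RLE scaling, no filter, fits of the compared groups only, separate or all libraries, leaving out samples and a block for the replicate number were alternatives.

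Exon lengths came from GENCODE M39 (GRCm39), which holds 54749 of the 55359 genes, and promoters from RefSeq (GRCm38.p6). Tables and figures were made in Python 3.11.15 (matplotlib 3.10.9, pandas 2.3.3, numpy 2.4.6, scipy 1.17.1). The receptor genes and all lists were chosen with earlier results of these data known. Genes named were the 8 receptors, listed genes called in a comparison and the 3 genes most like each receptor. Jak1, Stat5b, Il2, Il15, Tslp, Il4, Il7, Il9, Il13 and Il21 fall outside this rule and were picked with their values in view. One item is not reported here.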

Additional observations from a re-analysis of the deposited data

Results flagged for a closer look

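In 31 sets of one receptor gene in a group of 4 or more samples, 4 samples stood apart from the rest of their group by the gap to the nearest sample (Dixon's test at 95%), and chance gives about 1 in 20 groups. *Il15ra* was at 0.0 CPM in S+P C5 replicate 3, where the other 5 samples held 45.0 to 54.3 CPM. *Il4ra* was at 21.5 CPM in S+P C5 replicate 1 against at most 12.02 CPM in the others. *Il13ra1* was at 0.0442 CPM (2 counts) in S+P C4 replicate 6, where the other samples had no count, and at 3.50 CPM in S+P C7 replicate 6. The chance rate does not hold for *Il13ra1*, which was at or under 3 counts in 24 of 30 samples. Leaving out S+P C5 replicate 1 gave *Il4ra* a log2 fold change of -2.60 against Sensitized, and edgeR's adjusted p was 0.353. Groups of 3 samples were not examined in this way.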

How the results depend on the processing

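The number of the 8 genes called was recomputed under each alternative. Against 1 call in Sensitized against Naive there were 0 with an adjusted p under 0.05, with no filter and with all 56 libraries kept, and 0 to 0 when any replicate was left out. Against 1 call in S+P C5 against Sensitized there were 0 with no filter, 2 with only the groups compared, 3 with technical libraries separate and 2 without the samples with under 9000 genes, and leaving out a replicate gave 0 to 1. Against 1 call in S+P C7 against Sensitized there were 0 with only the groups compared. Where no gene was called, N+P C5 against Naive gave 1 with DESeq2, only the groups compared, technical libraries separate or without samples with under 9000 genes, and N+P C5 against N+P C1 gave 1 with DESeq2. S+P C4 against Sensitized gave 1 with technical libraries separate or without samples with under 9000 genes. S+P C7 against S+P C4 gave 1 with DESeq2, technical libraries separate or all libraries kept, and 0 to 1 when a replicate was left out (1 without S+P C4 replicate 1 or 4). S+P C7 against S+P C5 gave 2 and S+P C5 against N+P C5 gave 1 with technical libraries separate. The difference between the pregnancy contrasts gave 1 with DESeq2, 1 with only the groups compared, 3 with technical libraries separate and 1 without samples with under 9000 genes. The cause was not tested. Separate technical libraries count a sample more than once.

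The replicate block, fitted for the 4 comparisons between subsets that share replicate numbers, called 0 receptor genes in each and changed no call of a receptor gene. Deviations from the group means of same-numbered samples correlated at 0.007 to 0.17 in N+P (3 pairs, mean 0.112). In S+P they correlated at 0.072 to 0.247 (14 pairs, mean 0.161). Other pairs of subsets correlated at -0.189 to 0.043 (mean -0.056) and -0.213 to 0.234 (mean 0.003). Same-numbered samples were thus more alike on average, with ranges that overlapped. The main fit did not pair them, so its p-values between subsets of pregnant mice take no account of this likeness. RLE scaling changed no count of receptor genes called. No receptor result with an unadjusted p under 0.05 changed direction under these alternatives. Over all genes, the 12 comparisons called 0 to 30 genes each, against 606 to 1102 with DESeq2, 9 to 1134 with technical libraries separate, 0 to 142 with only the groups compared, 0 to 14 with no filter and 0 to 199 without samples with under 9000 genes. *Il13ra1* was at or under 3 counts in 24 of 30 samples and *Il2ra* in 8.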
